A study of Mus musculus with 2 samples.

Results

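The nuclear factor kappaB (NF-kappaB) genes described here are 5 subunits (Nfkb1, Nfkb2, Rel, Rela, Relb), 4 inhibitor-of-kappaB (IkB) proteins (Nfkbia, Nfkbib, Nfkbie, Nfkbiz) and Tnfaip3, which encodes the feedback inhibitor A20. Members were the probe sets whose gene symbol in the platform annotation was 1 of these 10 names. That gave 19 of the 45101 probe sets of the array, for 9 of the 10 genes. No probe set of the table used here named Nfkb1, which was not analysed here. Both groups were CD4+CD25hi Treg cells sorted from the spleen of mice aged 6 to 8 weeks. One was the miR-125a KO pool, from mice deficient for the microRNA miR-125a, and the other the WT pool, from wild-type littermates. The labels name no other allele and no agent given to the mice. They describe the KO mice as miR-125a-deficient, and the way the allele was made, the cells it acts in and the number of mice pooled are not given in the sources used here. Equal amounts of RNA of several mice of a genotype were pooled and read on 1 Affymetrix Mouse Genome 430 2.0 array per genotype. Every difference below therefore compares 2 pooled samples, with no replicate and no test.

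NF-kappaB is a family of dimeric transcription factors held in the cytoplasm by IkB proteins. Signals from the T cell receptor, CD28 and receptors of the tumour necrosis factor family activate an IkB kinase, the IkB protein is degraded, and the freed dimer enters the nucleus, where Nfkbia and Tnfaip3 are themselves among the genes it induces and act back on the pathway. In regulatory T (Treg) cells the subunit c-Rel, the product of Rel, takes part in switching on Foxp3 during development in the thymus. TNFAIP3 has been described in human cells as a target of the miR-125 family.

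MicroRNAs pair with transcripts mainly through their seed, bases 2 to 8 from the 5′ end. The sequences below show which mouse microRNAs share the seed of the deleted one. Of 1738 mature mouse microRNA entries of the RefSeq table (build GRCm38.p6), those under 5 names carried it, and the capitals mark the seed.
miR-125a-5p: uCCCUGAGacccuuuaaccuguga
miR-125b-5p: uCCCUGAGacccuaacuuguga
miR-351-5p: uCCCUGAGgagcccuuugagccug
miR-6367: uCCCUGAGacccugguucagga
miR-6394: uCCCUGAGuggggccaggucu
The miR-125a-5p sequence lies at chr17:17830817-17830840 on the plus strand. The genes of the others lie elsewhere, that of miR-125b-5p at chr9:41581940-41581961 and at chr16:77646279-77646300. Levels of these microRNAs were not analysed here, so the deletion itself was not checked. Transcript sequences were not used here, and sites for the seed in the members were not searched.

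Several members have a kappaB element, the DNA sequence that NF-kappaB dimers bind, close to their start. RefSeq promoters (build GRCm38.p6) were matched for 7 of the 10 members, with 10 annotated starts in all. Nfkb1, Relb and Nfkbiz were not matched. The 10-base kappaB consensus was searched on both strands in the 250 bases before each start. It was found for 5 of the 7 genes, Nfkb2, Rel, Nfkbia, Nfkbie and Tnfaip3, and at 7 of the 10 starts. Of all 32851 promoters in the table, 7.25% held a match in the same window. The 150 bases before the first listed start of these 5 genes are printed 5′ to 3′ in the direction of the gene, with matches in capitals, to show how near the start the element lies in genes whose levels are compared below. Overlapping matches, including a match of 1 site on both strands, run together into 1 block of capitals.
Tnfaip3 promoter, chr10:19015411-19015560, minus strand: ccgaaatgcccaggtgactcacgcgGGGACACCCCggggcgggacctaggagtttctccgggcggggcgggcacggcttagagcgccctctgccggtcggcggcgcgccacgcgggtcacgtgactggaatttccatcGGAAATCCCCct
Nfkbia promoter, chr12:55492648-55492797, minus strand: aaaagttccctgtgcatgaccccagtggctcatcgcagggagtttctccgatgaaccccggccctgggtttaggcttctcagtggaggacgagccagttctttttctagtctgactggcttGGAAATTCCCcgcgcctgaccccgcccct
Nfkbie promoter, chr17:45555550-45555699, plus strand: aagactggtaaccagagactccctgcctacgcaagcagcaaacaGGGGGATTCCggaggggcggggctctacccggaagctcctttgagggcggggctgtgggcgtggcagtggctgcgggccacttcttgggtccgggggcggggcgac
Nfkb2 promoter, chr19:46304587-46304736, plus strand: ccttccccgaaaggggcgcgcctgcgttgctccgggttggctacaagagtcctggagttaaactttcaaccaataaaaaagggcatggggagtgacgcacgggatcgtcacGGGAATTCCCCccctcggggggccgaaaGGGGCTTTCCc
Rel promoter, chr11:23770970-23771119, minus strand: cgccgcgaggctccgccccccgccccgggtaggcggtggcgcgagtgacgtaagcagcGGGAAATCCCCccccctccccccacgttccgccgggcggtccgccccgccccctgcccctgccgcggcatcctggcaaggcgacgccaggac
The Tnfaip3 blocks run from 125 to 116 and from 12 to 3 bases before the start. The Nfkbia block runs from 29 to 20 bases before it and that of Nfkbie from 106 to 97. Nfkb2 has blocks from 39 to 29 and from 11 to 2 bases before its first start, and Rel has 1 from 92 to 82. The second and the third listed starts of Nfkb2 each have 1 block farther off, from 236 to 227 and from 225 to 216 bases before them. No match was found for Rela, Nfkbib or the second start of Tnfaip3, which says only that these letters are not in this window. A match is a stretch of sequence, and binding was not measured.

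**Figure D1:**
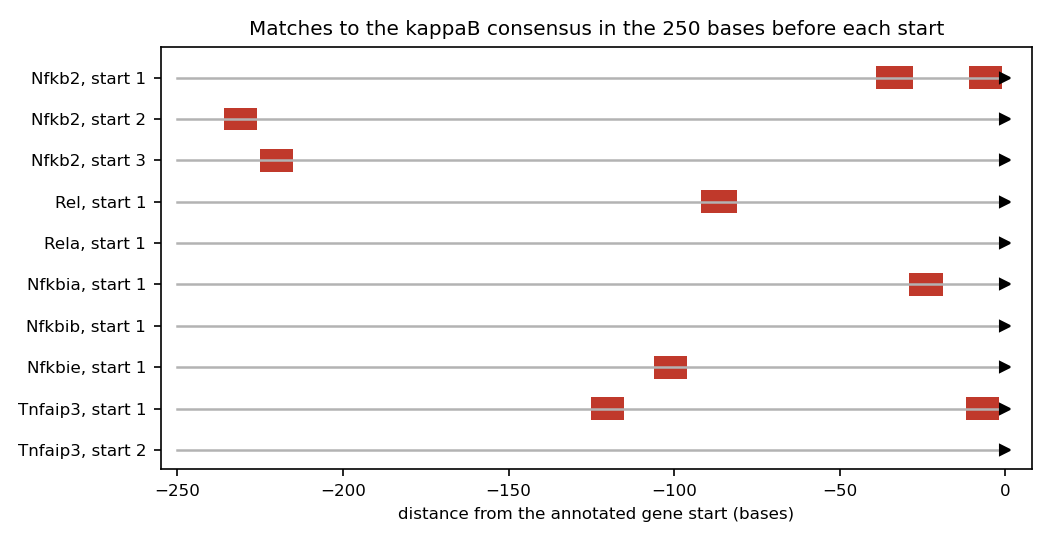
Positions of matches to the kappaB consensus (red blocks) in the 250 bases before each annotated start of the 7 members with a RefSeq promoter, with the distance from the start in bases on the x axis and the start as an arrowhead. Tnfaip3, Nfkbia and Nfkb2 have a block within 39 bases of a start, whereas Rela, Nfkbib and the second Tnfaip3 start have none.

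Signals are on the scale of MAS5, the Affymetrix summary method, which the deposited values put at a trimmed mean of 500.0 on both arrays. The log2 ratio is that of the miR-125a KO over the WT pool after adding 16.3, the 25th percentile of all signals, to both. It understates differences of dim probe sets. Only probe sets whose mean signal reached 62.5, the median of the array, were counted, which kept 18 of the 19 member probe sets. Beside each ratio stands a probe-set SD, the spread of ratios between probe sets of 1 gene at that signal. It ran from 0.38 in the dimmest to 0.17 in the brightest of 10 groups over 5030 genes and does not cover variation between mice.

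The cells' identity was checked first. Cd3d and Cd3g, chains of the T cell receptor complex, had 19862 and 11392 in the miR-125a KO pool, against 19986 and 11328 in the WT pool. Cd4 had 641 in the KO pool and 715 in the WT pool, and Cd3e 1438 in the KO and 1920 in the WT pool. Il2ra, which encodes the CD25 used for the sort, had 18551 in the KO and 15390 in the WT pool. Foxp3, whose product defines the Treg lineage, was present in both pools but lower in the KO pool, at 694 against 1631 in the WT pool (log2 ratio -1.21, probe-set SD 0.20). The other markers of the 6-gene Treg list did not share that difference. Ikzf2, which encodes the transcription factor Helios, had 1821 in the KO and 1332 in the WT pool (log2 ratio 0.45, probe-set SD 0.21), and Gpr83 had 2116 in the KO and 1662 in the WT pool (log2 ratio 0.34, probe-set SD 0.21), with its other probe set at -0.07. Ctla4, an inhibitory receptor, had a log2 ratio of 0.02 and Tnfrsf18, which encodes the receptor GITR, -0.08. Over the list, 4 of 6 genes were above 0, with a median log2 ratio of 0.14. In pooled bulk RNA, fewer cells of a type and less RNA per cell cannot be told apart. Among markers of other cells, the summed signal of 5 CD8 T and NK cell genes, of which 4 passed the minimum, was 9679 in the KO and 14243 in the WT pool. Most of it came from Klrd1 (KO 5065, WT 7919) and Nkg7 (KO 3969, WT 5438). Cd8a (KO 295, WT 435) and Cd8b1 (KO 332, WT 438) were dimmer and also lower, with other Cd8a probe sets at log2 ratios from -0.56 to 0.15. Ncr1, below the minimum, was higher (KO 18.0, WT 14.0). The summed signal of 8 macrophage, monocyte and dendritic cell genes, of which 4 passed the minimum, was 483 in the KO and 721 in the WT pool. The 4 past the minimum were all lower in the KO pool, with a median log2 ratio of -0.70. Of these, Fcer1g (KO 103, WT 226) and Cd68 (KO 87.4, WT 166) differed most. Lyz2 (KO 61.0, WT 30.8) and Itgam (KO 6.9, WT 1.1) went the other way, but both lay below the minimum. The summed signal of 5 basophil and mast cell genes, of which 3 passed it, was 639 in the KO and 1054 in the WT pool. Most of this difference came from Kit (KO 285, WT 643). Cpa3 and Mcpt8 were also lower, Fcer1a was level (KO 176, WT 180) and Ms4a2 was higher (KO 49.6, WT 23.1). The sum over 5 neutrophil genes, of which 0 passed the minimum, was 109 in the KO and 204 in the WT pool. The sum over 5 B cell genes, of which 1 passed it, was 323 in the KO and 338 in the WT pool. The sum over 5 erythroid and platelet genes, of which 3 passed it, was 2265 in the KO and 1847 in the WT pool. Pf4 (KO 1744, WT 1226) carried this difference. Gp9 was also higher (KO 120, WT 73.1), Itga2b was lower (KO 394, WT 536), and Hba-a1 and Alas2 lay far below the minimum in both pools. No defining marker stood at the lowest deposited signal in both pools. That signal lies far below the minimum, and Itgam, Hba-a1 and Alas2 passed this check although dim in both pools. The check therefore cannot show whether cells of the other types were present. The part of these cells in the ratios below was not tested.

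No member probe set differed by 2-fold. Of the 18 past the minimum, 0 were higher by 2-fold or more and 0 lower in the miR-125a KO pool. Among all 19229 named probe sets past the minimum, 1.03% were higher and 1.38% lower by that much. At 1.5-fold, 1 probe set, of Tnfaip3, was higher and 2, both of Nfkbiz, were lower, against 4.72% of all probe sets higher and 7.15% lower at that fold. The small differences mostly shared a direction. Of the 18 probe sets, 15 had a log2 ratio above 0, that is 83.3%, against 47.5% of all probe sets. Their median log2 ratio was 0.26 and the median over all probe sets -0.02. The names of 9 member probe sets past the minimum, of Rel, Relb, Nfkbia, Nfkbiz and Tnfaip3, do not mark them as able to match several transcripts. Of these 9, 7 were above 0 and the median was 0.14, against -0.03 over all probe sets of that kind. At a minimum of the 75th percentile of signal, 13 of 15 member probe sets were above 0. Their median was 0.27, against 0.003 over all probe sets kept there. Of the 15 above 0 in the main count, 5 were probe sets of Nfkbia, which are not independent. By gene, 8 of the 9 measured members were above 0, against 51% of all 10583 genes past the minimum, and Nfkbiz alone was below.

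**Figure D2:**
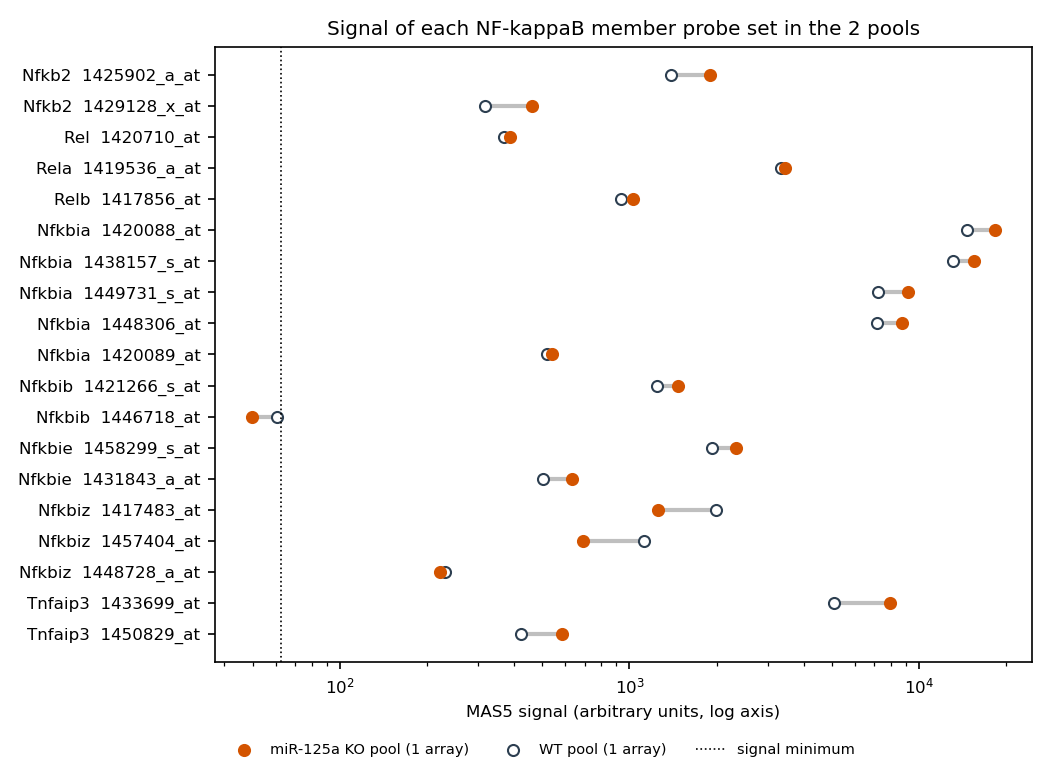
MAS5 signal (x axis, logarithmic) of each of the 19 member probe sets in the miR-125a KO pool (filled orange points) and the WT pool (open points), 1 array each, with the signal minimum as a dotted line. The KO point lies to the right for every probe set of Tnfaip3, Nfkb2, Rel, Rela, Relb, Nfkbia and Nfkbie, and to the left for those of Nfkbiz and the dim probe set of Nfkbib.

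Tnfaip3 was the member with the highest ratio. A20, its product, edits ubiquitin chains on signalling proteins upstream of the IkB kinase and so ends NF-kappaB signalling. Its brighter probe set, 1433699_at, had a signal of 7900 in the miR-125a KO pool, against 5069 in the WT pool. Its log2 ratio was 0.64 (probe-set SD 0.17), a 1.56-fold difference. The dimmer probe set, 1450829_at, had 583 in the KO and 422 in the WT pool (log2 ratio 0.45, probe-set SD 0.27). Both probe sets were higher in the KO pool, and their mean log2 ratio was 0.55, with an SD between them of 0.13. When all named probe sets past the minimum were split into 10 equal groups by signal, 1.66% of the brightest group, to which 1433699_at belongs, were 1.5-fold or more higher in the KO pool.

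Nfkbiz lay on the other side. It encodes IkBzeta, an inducible IkB protein found in the nucleus, where it helps to activate a second set of NF-kappaB target genes such as Il6. Probe set 1417483_at had 1253 in the miR-125a KO pool, against 1989 in the WT pool (log2 ratio -0.66, probe-set SD 0.21). Probe set 1457404_at had 690 in the KO and 1125 in the WT pool (log2 ratio -0.69, probe-set SD 0.24). These are 1.58-fold and 1.61-fold lower in the KO pool, and in the signal groups they belong to, 4.94% and 4.68% of probe sets were lower by 1.5-fold or more. The third probe set, 1448728_a_at, did not share this difference. Its signal was 221 in the KO and 231 in the WT pool (log2 ratio -0.06, probe-set SD 0.32), and the ratio turned to 0.03 with quantile normalization and 0.02 with loess scaling. The 3 probe sets of Nfkbiz thus had an SD of 0.36 among themselves, larger than that of any other member with several probe sets. The mean over the 3 was -0.47, and whether they read different transcript forms was not tested.

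Among the subunits, Nfkb2 had the highest ratios. It encodes p100, the precursor of p52 and an inhibitor of RelB, and is the central gene of the alternative NF-kappaB pathway. Probe set 1425902_a_at had 1896 in the miR-125a KO pool, against 1388 in the WT pool, and 1429128_x_at had 459 in the KO and 316 in the WT pool. The log2 ratios were 0.45 (probe-set SD 0.21) and 0.52 (probe-set SD 0.27), 1.36-fold and 1.43-fold higher, and differed from each other by less than the probe-set SD. Both names mark probe sets that can match several transcripts, in the case of 1429128_x_at also transcripts of other genes.

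The other subunits differed by less than their probe-set SD. Rela, which encodes p65, the main activating subunit of the classical pathway, had 3453 in the miR-125a KO and 3332 in the WT pool (log2 ratio 0.05, probe-set SD 0.19). Rel had 388 in the KO and 368 in the WT pool (log2 ratio 0.07, probe-set SD 0.27). Relb, which encodes the partner of p52 in the alternative pathway, had 1029 in the KO and 932 in the WT pool (log2 ratio 0.14, probe-set SD 0.24). Each was read by 1 probe set.

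Each probe set of the classical inhibitors past the minimum had a ratio above 0. Nfkbia encodes IkBalpha, which is degraded on activation and then made again from an NF-kappaB-driven gene. Its probe set 1420088_at had 18249 in the KO pool, against 14648 in the WT pool (log2 ratio 0.32, probe-set SD 0.17). Probe set 1438157_s_at had 15438 in the KO and 13037 in the WT pool (log2 ratio 0.24). Probe set 1449731_s_at had 9114 in the KO and 7196 in the WT pool (log2 ratio 0.34), and 1448306_at had 8700 in the KO and 7158 in the WT pool (log2 ratio 0.28). These 4 bright probe sets had closely similar ratios. The dimmest, 1420089_at, had 542 in the KO and 520 in the WT pool (log2 ratio 0.06, probe-set SD 0.27). All 5 probe sets of Nfkbia were higher in the KO pool, with an SD between them of 0.11, which covers error of the probe sets and not of the pools.

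Nfkbie encodes IkBepsilon, an inhibitor that, like IkBalpha, is made again after activation. Probe set 1458299_s_at had 2329 in the miR-125a KO pool, against 1929 in the WT pool, and 1431843_a_at had 633 in the KO and 503 in the WT pool. Their log2 ratios of 0.27 (probe-set SD 0.21) and 0.32 (probe-set SD 0.27) lay close together. Nfkbib encodes IkBbeta, an inhibitor that is degraded more slowly. Probe set 1421266_s_at had 1467 in the KO and 1244 in the WT pool (log2 ratio 0.23, probe-set SD 0.20). Its other probe set, 1446718_at, lay below the signal minimum, at 49.8 in the KO and 60.6 in the WT pool, and was left out of the counts. Over the classical inhibitors, 8 of 8 probe sets past the minimum had a ratio above 0, with a median log2 ratio of 0.28 and a range from 0.06 to 0.34. Of these 8, 5 are probe sets of Nfkbia, which share a transcript and are not independent.

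**Figure D3:**
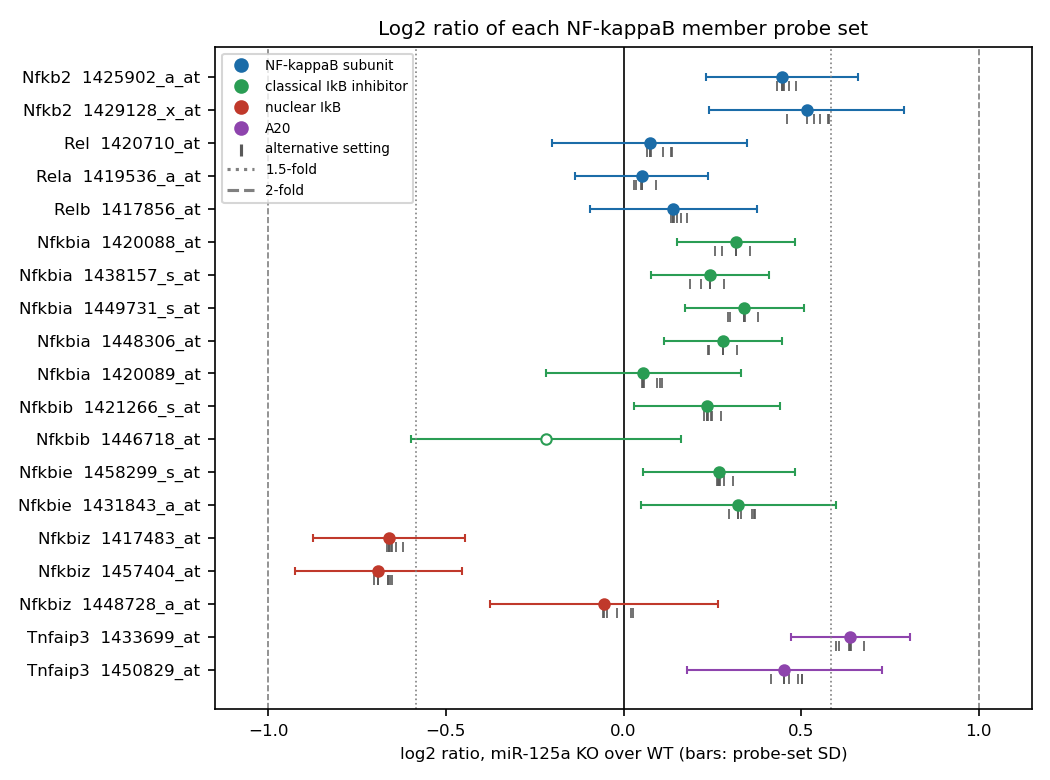
Log2 ratio of the miR-125a KO over the WT pool for each member probe set (points coloured by role, the open point below the signal minimum), with bars of 1 probe-set SD, grey ticks for the alternative settings, and dotted and dashed lines at 1.5-fold and 2-fold. All points lie inside 2-fold, from -0.69 for Nfkbiz to 0.64 for Tnfaip3, and the grey ticks stay near their points.

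**Figure D4:**
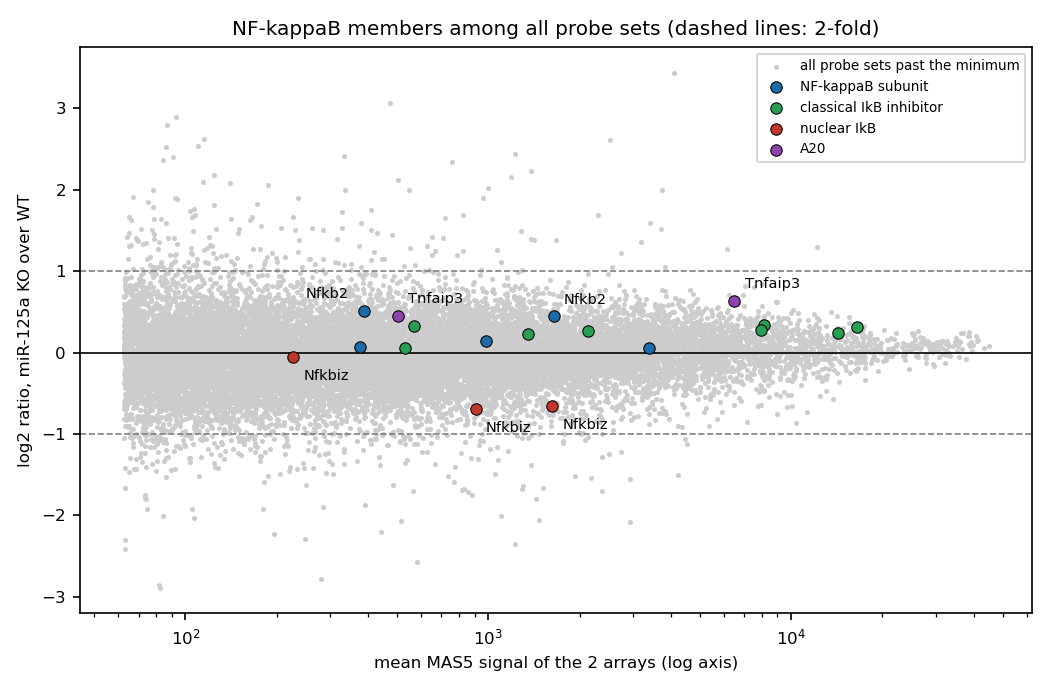
Log2 ratio of the miR-125a KO over the WT pool (y axis) against the mean signal of the arrays (x axis, logarithmic) for all 19229 named probe sets past the minimum (grey) and the 18 of the members (coloured by role). The bright Tnfaip3 probe set, at 0.64, lies near the upper edge of the grey points at its signal, and the pair of lower Nfkbiz probe sets, at -0.66 and -0.69, towards the lower edge.

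Other genes of the pathway lay below 0 more often than above it. Lists of other pathway genes, 6 in all, were examined, each gene by its brightest probe set. Some genes are in more than 1 list, so the lists are not independent. Birc3 and Traf1 are among the adaptors and among the target genes. Tnfrsf1b, Tnfrsf4, Tnfrsf9, Tnfrsf18 and Cd40 are among the target genes and among the receptors. All of these shared genes had ratios below 0 by their brightest probe set. Another probe set of Birc3 had a log2 ratio of 0.80 and another of Traf1 0.13, whereas those of Tnfrsf1b, Tnfrsf9 and Cd40 were below 0. Of all 10583 genes past the minimum, 1.08% were higher and 1.18% lower by 2-fold or more in the miR-125a KO pool, and 51% had a ratio above 0, with a median log2 ratio of 0.01. The 9 members had a median of 0.23, and the medians of the 6 lists lay between -0.16 and -0.05. Whether the members differ from these lists beyond the error between pools could not be tested with 1 array per genotype.

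Of 9 other IkB-like genes and modulators of Rel proteins past the minimum, 4 were above and 5 below 0, and none reached 2-fold. Their median log2 ratio was -0.16 by the brightest probe set of each gene and 0.068 by the mean over its probe sets, so its sign depends on that choice. Nfkbid, which encodes the nuclear protein IkBNS, had 1518 in the miR-125a KO and 1192 in the WT pool (log2 ratio 0.35, probe-set SD 0.20). Commd1, whose product promotes the degradation of p65, had the highest ratio, 0.57, at 2426 in the KO and 1628 in the WT pool, while its other probe set had -0.15. Pdlim2, which encodes a nuclear ubiquitin ligase for p65, had -0.35, and Nkiras2, whose product binds IkBbeta, had -0.29.

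The list of the IkB kinase complex and the steps before it holds kinases and their partners, among them Ikbkg, Tab1, Tab2 and Tab3, which are not kinases. Of its 14 genes past the minimum, 3 were above and 11 below 0, none reached 2-fold, and the median log2 ratio was -0.12. Map3k8, which encodes TPL2, a kinase that is held by the NF-kappaB precursor p105, had the highest ratio of these, at 1992 in the miR-125a KO pool, against 1307 in the WT pool (log2 ratio 0.60, probe-set SD 0.21). Ikbkb, the IkB kinase subunit of the classical pathway, had a log2 ratio of -0.07 (probe-set SD 0.21). Its relatives Ikbke and Tbk1 had -0.32 and 0.08. The lowest were Irak2, a kinase of interleukin-1 and Toll-like receptor signalling, at 350 in the KO and 518 in the WT pool (log2 ratio -0.54, probe-set SD 0.27), and Tab3, an adaptor of the kinase TAK1, at -0.40.

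Adaptors and ubiquitin ligases had 6 of 16 genes above and 10 below 0, none at 2-fold, and a median log2 ratio of -0.07. Traf2, an adaptor of tumour necrosis factor receptors, had 887 in the miR-125a KO and 654 in the WT pool (log2 ratio 0.43, probe-set SD 0.24). Sharpin, a subunit of the ligase for linear ubiquitin chains, had 0.22, with its other probe set at -0.21. Tradd, an adaptor of tumour necrosis factor receptor 1, had 514 in the KO and 770 in the WT pool (log2 ratio -0.57, probe-set SD 0.24), and its other probe set had -0.44. Btrc, which encodes the ligase subunit that recognises phosphorylated IkB, was dim, at 92.1 in the KO and 143 in the WT pool, and its ratio of -0.55 was not shared by its other probe set, at 0.03.

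The partners of A20 and other brakes did not share the ratio of Tnfaip3. Of 12 measured, each by its brightest probe set, 5 were above and 7 below 0, and the median log2 ratio was -0.05. None of the 12 reached 1.5-fold in either direction, against 530 higher and 611 lower of all 10583 genes past the minimum. Those are small shares of all genes, so finding none among 12 does not set this list apart. Other probe sets of Itch, Tax1bp1 and Rnf11 did pass 1.5-fold lower, with lowest log2 ratios of -0.74, -0.70 and -0.60. The highest of the other probe sets was 0.30, of Zc3h12a. Otulin, which removes linear ubiquitin chains, had the highest ratio, 0.22, at 6013 in the miR-125a KO and 5174 in the WT pool, and Tnip2, which encodes the A20-binding protein ABIN-2, had 0.19. Zranb1 and Otud7b, both deubiquitinases related to A20, had the lowest, -0.42 and -0.35. Other probe sets of Zranb1 lay between -0.12 and 0.21, and those of Otud7b between -0.23 and 0.19.

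Known NF-kappaB target genes outside the family went both ways. Of 43 past the minimum, 15 were above and 28 below 0, with a median log2 ratio of -0.08. Past 2-fold by the brightest probe set were 4, with Csf2 and Cd83 higher and Cd80 and Foxp3 lower. Another probe set of Cflar was also past 2-fold lower (log2 ratio -1.06), while its brightest had 0.06. For Birc3 another probe set had 0.80, while its brightest had -0.07. Csf2, the gene of the cytokine GM-CSF, had 826 in the miR-125a KO pool, against 177 in the WT pool (log2 ratio 2.12, probe-set SD 0.27). Cd83, an activation marker, had 3528 in the KO and 1084 in the WT pool (log2 ratio 1.69, probe-set SD 0.21). Cd80, a ligand of CD28 and CTLA-4 found mainly on antigen-presenting cells, had 163 in the KO and 445 in the WT pool (log2 ratio -1.37, probe-set SD 0.32), and its other probe sets had -1.52 and -2.22. The summed signal of macrophage, monocyte and dendritic cell markers, given above, was also lower in the KO pool. The 4 of these markers past the minimum were all lower, and Lyz2 and Itgam, which were higher, lay below it. The summed signal stands beside the lower signal of Cd80, and its part was not tested. Il6, named after its value was seen because IkBzeta acts on it, had 351 in the KO and 223 in the WT pool (log2 ratio 0.61, probe-set SD 0.32), opposite in direction to Nfkbiz.

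Receptors that signal to NF-kappaB had 5 of 15 genes above and 10 below 0, with a median log2 ratio of -0.09. Tlr1, a Toll-like receptor, was the 1 gene at 2-fold, 2.09-fold lower, at 335 in the miR-125a KO pool, against 716 in the WT pool (log2 ratio -1.06, probe-set SD 0.27). Adding the median signal in place of the 25th percentile gave -0.97, which is under 2-fold. Tlr2, its partner, had 227 in the KO and 424 in the WT pool (log2 ratio -0.86, probe-set SD 0.32). The highest ratios were those of Tnfrsf25, a receptor of the ligand TL1A, at 0.19, and Tnfrsf1a, tumour necrosis factor receptor 1, at 0.13.

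**Figure D5:**
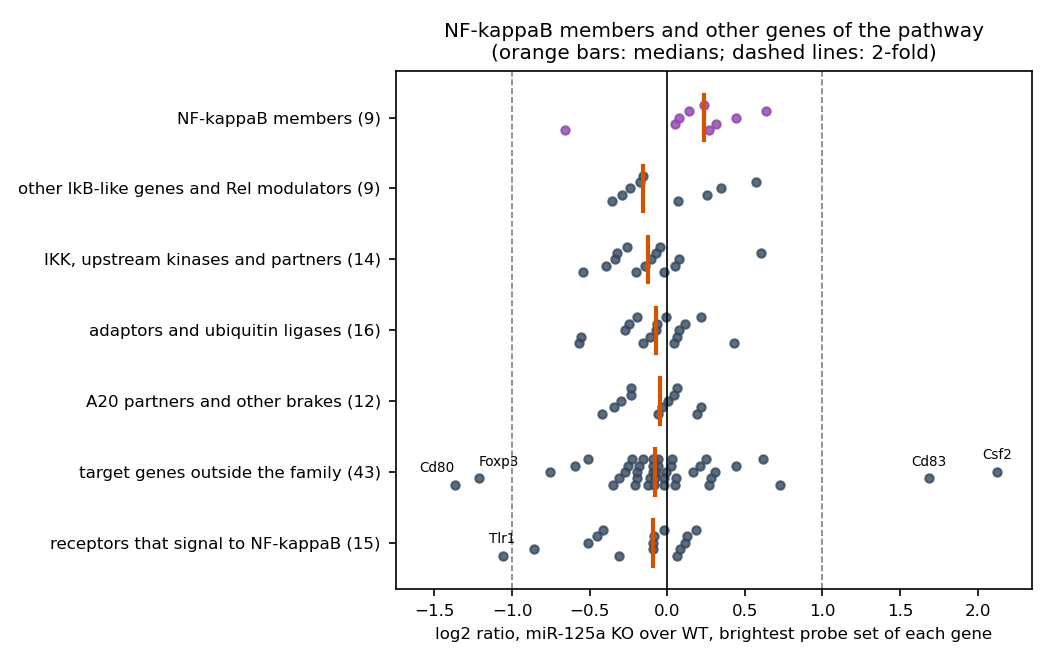
Log2 ratio of the miR-125a KO over the WT pool for the 9 measured NF-kappaB members (purple) and the genes of 6 other pathway lists past the signal minimum (numbers in brackets), each gene by its brightest probe set, with medians as orange bars and dashed lines at 2-fold. Genes shared between lists are drawn in each. The members' median, 0.23, lies above 0, and those of the other lists lie between -0.16 and -0.05.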

How the data were processed

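RNA of CD4+CD25hi Treg cells from a miR-125a KO and a WT pool was read on 1 array each. The authors deposited log2 signals of MAS5, which the submitters' processing notes name without a version. Turned back to a linear scale, both arrays had a mean of 500.0 after trimming 2% from each end. Detection calls were not used here, and the number of arrays limits the precision.

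Genes were named from the platform annotation, and 34945 probe sets named 1 gene. Identifiers of 34741 of them were found in a RefSeq gene table (GRCm38.p6). Sequences were copied from RefSeq tables of that build. Ratios, counts and medians were computed in Python 3.11.15 with pandas 2.3.3 and statsmodels 0.14.6, and checked on simulated data. No test was run and no p-value is given.

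The members and lists were chosen with earlier results of these data known. Named were all member probe sets, Foxp3, Il2ra, Cd4 and Cd3e, and of each pathway list the 2 highest and 2 lowest ratios and any gene at 2-fold. Cd3d, Cd3g, Il6, Ikbkb, Ikbke and the other Treg markers were named after their values were seen. So were the genes named singly among the markers of other cells. The same holds for other probe sets given for genes outside this rule, such as Itch and Cflar. Alternatives were 3 other scalings (equal medians, quantile, loess of span 0.3), a pseudocount of 1 or 63.1, no filter and a minimum of 451, folds of 1.5 and 3, and means over probe sets. Another left out probe sets whose names mark them as able to match several transcripts. Matches to transcripts were not checked.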

Additional observations from a re-analysis of the deposited data

How the results depend on the processing

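The 5 alternatives that change scaling or pseudocount gave 90 values for member probe sets. All 90 moved by less than the probe-set SD, and 88 kept the sign of the value reported. Filters only change which probe sets are kept and leave a probe set's ratio as it is. The 2 exceptions were those of Nfkbiz probe set 1448728_a_at given in the report. The members' median log2 ratio lay between 0.14, with only the 9 probe sets not named as matching several transcripts, and 0.30, with equal medians. At 1.5-fold in place of 2-fold, 1 member probe set was higher and 2 lower. Over all probe sets, 199 were at least 2-fold higher and 266 lower, so 42.8% of these were higher. That share was 53.8% with quantile normalization (245 higher, 210 lower) and 54.4% with loess scaling (248 higher, 208 lower). The counts were 95 higher and 109 lower with a pseudocount at the median signal, 1491 and 1187 with no filter, 45 and 76 with the minimum at the 75th percentile, 908 and 1375 at 1.5-fold, and 54 and 39 at 3-fold, higher first each time. The median of the other IkB-like genes and Rel modulators was 0.068 with the mean over probe sets, in place of -0.16. Without probe sets named as matching several transcripts, the ratio of Commd1 was -0.15, that of Btrc 0.03 and that of Cd80 -2.22. With 1 pooled array per genotype, none of these settings measures variation between mice. No paired analysis was possible because each group has 1 sample.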
